A study of Mus musculus with 4 samples.

Results

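The genes described here encode the Polycomb repressive complexes and the enzymes that reverse their marks, measured in thymocytes that carry both CD4 and CD8 (double positive thymocytes). They were chosen by name, as 35 genes in 8 groups by role, and every probe set annotated to exactly 1 of them was taken. That gave 92 probe sets for 34 genes, out of 45037 probe sets in all and 18193 genes with a probe set of their own. Rybp had no probe set to itself, and Pcgf2 lay under the filter on low signal, so 33 genes entered the comparison. The rule that picks them uses names only, though earlier results of these data were known when they were chosen.

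RNA came from 4 mice, 1 Affymetrix array per mouse. The 2 Ikf/f CD4-Cre+ mice (Cre-positive) carry a Cre recombinase driven by Cd4 regulatory sequences, which act from about the double positive stage of the T lineage, and the 2 Ikf/f CD4-Cre- mice (Cre-negative) do not. All 4 mice were Ikf/f, the genotype in which Cre is meant to delete Ikaros, the zinc finger protein encoded by Ikzf1. No Cre-positive mice without the floxed alleles were among them, so an effect of Cre cannot be told apart from one of Ikaros loss. The sources used here do not give age, sex, the way the cells were isolated or the grouping of arrays into batches. Signals of the sex-linked genes Xist and Uty, given below with Kdm6a, had a female pattern on Cre-negative sample 2 and a male pattern on the others. By these signals sex was not balanced between the groups, and its part in the differences was not tested.

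Polycomb proteins keep genes silent by modifying histones. Polycomb repressive complex 2 (PRC2) methylates histone H3 at its H3K27 site through its catalytic subunit Ezh1 or Ezh2, and Polycomb repressive complex 1 (PRC1) attaches ubiquitin to histone H2A through Ring1 or Rnf2. The demethylases Kdm6a and Kdm6b remove the PRC2 mark, and a deubiquitinase built from Bap1 and an Asxl protein removes the PRC1 mark. Ikaros is known as a DNA-binding regulator of lymphocyte genes that works with chromatin complexes, and these arrays give the transcript levels of the Polycomb machinery when Ikzf1 is reduced.

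The targeted gene was lower in the Cre-positive mice. Ikzf1 read 10.80 and 10.62 in Cre-positive samples 1 and 2, against 12.40 and 12.08 in Cre-negative samples 1 and 2, on the log2 scale of RMA (robust multi-array average) signals used throughout. Its other probe set, at 5.35 and 5.74 in Cre-positive mice, against 5.73 and 5.81 in Cre-negative mice, overlapped between the groups. The thymocyte markers Cd4, Cd8a and Rag1 were bright on all arrays, with means of 10.42, 12.71 and 13.33 in Cre-positive mice and 10.56, 13.01 and 13.44 in Cre-negative mice. Of 7 double positive thymocyte genes 0 passed in limma, where 1.37% of all genes passed. However, 6 were lower without overlap (18.7% of all genes), and 3 of these had an unadjusted p under 0.05 (6.29% of all genes). The median difference was −0.29 over the 7, with the most negative, −0.66, in Cd1d1. Some markers of other cell types moved with the groups. Of 10 kept macrophage and granulocyte markers 2 rose (Lyz2 and Ctss), and their mean signal was 6.01 and 6.30 on the Cre-positive arrays, against 5.14 and 5.05 on the Cre-negative arrays. Of 9 kept dendritic cell markers 2 rose (H2-Ab1 and Irf8), and the mean signals of the 9 were 6.40 and 6.46 against 5.74 and 5.46. In this list 6 were higher and 1 lower without overlap, against 34.2% and 18.7% of all genes. The lower one was Zbtb46 (−0.14), and Flt3 (−0.16) and Siglech (0.01) overlapped. The filter took the mean of all 4 arrays, and C1qb, C1qc, S100a8 and Itgax lay below it in the Cre-negative mean. They were kept through their Cre-positive signal, so the gap in these mean signals is partly set by the filter. S100a8 read 4.52 and 8.38 in Cre-positive mice, against 4.495 and 4.02 in Cre-negative mice. In limma 0 of 19 proliferation genes passed (4 higher at an unadjusted p below 0.05, against 14.3% of all genes). Their mean signal was 9.08 and 9.90 on the Cre-positive arrays, against 8.45 and 9.35 on the Cre-negative arrays. These means overlapped between the groups, as did 13 of the 19 genes. The other 6 were higher without overlap, against 34.2% of all genes. Among stromal and epithelial markers 1 of 6 rose (Pdgfrb). Col1a2 did not pass (limma adjusted p = 0.107) but had the largest difference, 4.52 ± 1.07 (SE). It read 11.55 and 8.01 in Cre-positive mice, against 5.18 and 5.33 in Cre-negative mice. Pecam1, Epcam and Krt5 had negative differences with overlapping arrays. Among B cell markers 0 of 3 passed. Ms4a1, also kept through its Cre-positive signal, had an unadjusted limma p under 0.05. What part these other cells, the thymocyte genes and the proliferation genes have in the values below was not tested. In RNA from many cells together, fewer cells of a type and less RNA per cell cannot be told apart.

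Across the Polycomb genes no transcript passed the test, in either direction. Of the 33 genes 0 rose and 0 fell in limma (Benjamini-Hochberg adjusted p under 0.05 over 11639 genes), where 1.37% of all genes passed. At an unadjusted p under 0.05 there were 4 higher and 3 lower, 21.2% of the genes, against 20.6% of all genes tested (14.3% higher and 6.29% lower). There was no overlap between the groups for 16 of the 33 (48.5%), 11 higher and 5 lower in Cre-positive mice, against 52.9% of all genes (34.2% higher and 18.7% lower). The median difference, Cre-positive minus Cre-negative, was 0.09 on the log2 scale, beside 0.06 over all genes, and it was −0.04 beside −0.07 after each array was centred on the median of the genes kept. Before that centring 25 of the 33 differences were positive (75.8%, against 61.0% of all genes), and after it 14 were (42.4%, against 38.8%). The same centring changed the share of higher genes among all calls from 80.6% to 61.0%. The differences lay between −0.64 (Scmh1) and 0.42 (Asxl1) in the members, and between −3.51 (Xist) and 4.52 (Col1a2) over all genes tested. The second range covers far more genes. Its ends were set by Xist, high on Cre-negative sample 2 alone, and by a stromal marker.

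**Figure D1:**
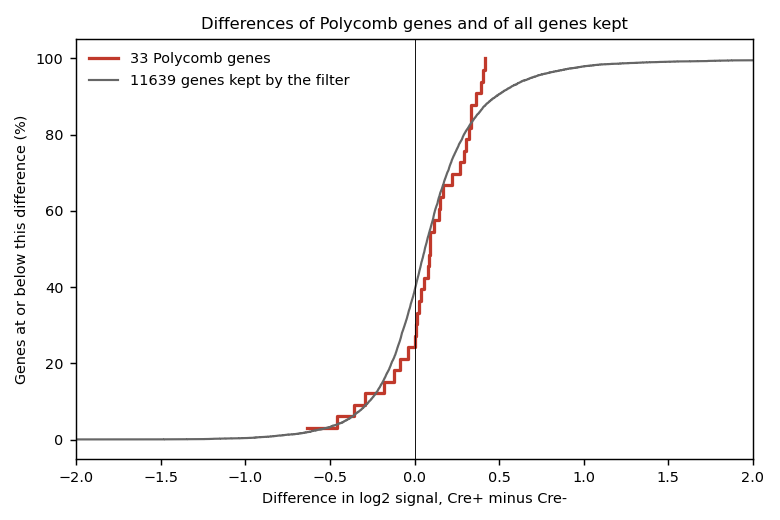
Cumulative share of genes (vertical axis, %) at or below each difference in log2 signal, Cre-positive minus Cre-negative (horizontal axis), for the 33 Polycomb genes (red) and the 11639 genes kept by the filter (grey). The red curve ends at −0.64 and 0.42, while the grey curve runs on, with 57 genes beyond the axis limits of 2.

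No gene of PRC2 separated the groups by the probe set that stood for it. All 4 core subunits and all 5 accessory subunits had arrays that overlapped between Cre-positive and Cre-negative mice, where 52.9% of all genes did not overlap. Of the 18 further kept probe sets of these genes 3 were higher and 4 lower without overlap (38.9%, against 53.2% of all probe sets), in Ezh1, Suz12, Mtf2 and Aebp2. Ezh2, the methyltransferase of dividing cells, read 10.95 and 11.55 in Cre-positive samples 1 and 2, against 11.07 and 11.26 in Cre-negative samples 1 and 2. The Cre-positive arrays thus lay on both sides of the Cre-negative pair. Proliferation signal and Ezh2 were both highest on Cre-positive sample 2. Proliferation signal was lowest on Cre-negative sample 1, whereas Ezh2 was lowest on Cre-positive sample 1, and a link between them was not tested. The Ezh2 difference was 0.08 ± 0.22 (± SE, n = 2 per group), with a 95% interval from −0.46 to 0.62 that still allows a sizeable change either way.

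Ezh1, the methyltransferase paralogue found also in resting cells, read 9.25 and 9.24 in Cre-positive mice, against 9.30 and 9.19 in Cre-negative mice. These arrays interleaved, and the difference of 0.003 had a 95% interval from −0.28 to 0.29. Another Ezh1 probe set read 6.14 and 5.88, against 5.66 and 5.79, a difference of 0.28 ± 0.15 (SE) that did not pass. Suz12, the subunit that holds the complex together, read 10.78 and 11.11 in Cre-positive mice, against 11.04 and 10.66 in Cre-negative mice. Eed, which binds the methylated histone and stimulates the enzyme, read 9.99 and 10.04, against 10.02 and 10.18. The intervals of these subunits ran from −0.375 to 0.56 for Suz12 and from −0.385 to 0.217 for Eed.

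The accessory subunits, which guide PRC2 to chromatin, had differences between −0.12 (Phf1) and 0.15 (Phf19). Jarid2, which links PRC2 to its targets and stimulates the enzyme, read 11.48 and 11.14 in Cre-positive mice, against 11.27 and 11.29 in Cre-negative mice. Mtf2, a Polycomb-like protein that binds DNA rich in CpG, read 11.28 and 11.24, against 11.28 and 11.24, a difference of 0.006 with a 95% interval from −0.27 to 0.28. Of its other sets 1 was higher (0.24) and 2 were lower (−0.19 and −0.06) without overlap. Phf1 and Phf19 belong to the same Polycomb-like family as Mtf2. Aebp2, a zinc finger cofactor, differed by 0.04 in the probe set that stood for the gene, but its other probe sets were all negative. The most negative read 7.94 and 7.80 in Cre-positive mice, against 8.49 and 8.42 in Cre-negative mice, a difference of −0.59 ± 0.125 (SE; limma adjusted p = 0.0834 over 20967 probe sets). These arrays did not overlap.

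**Figure D2:**
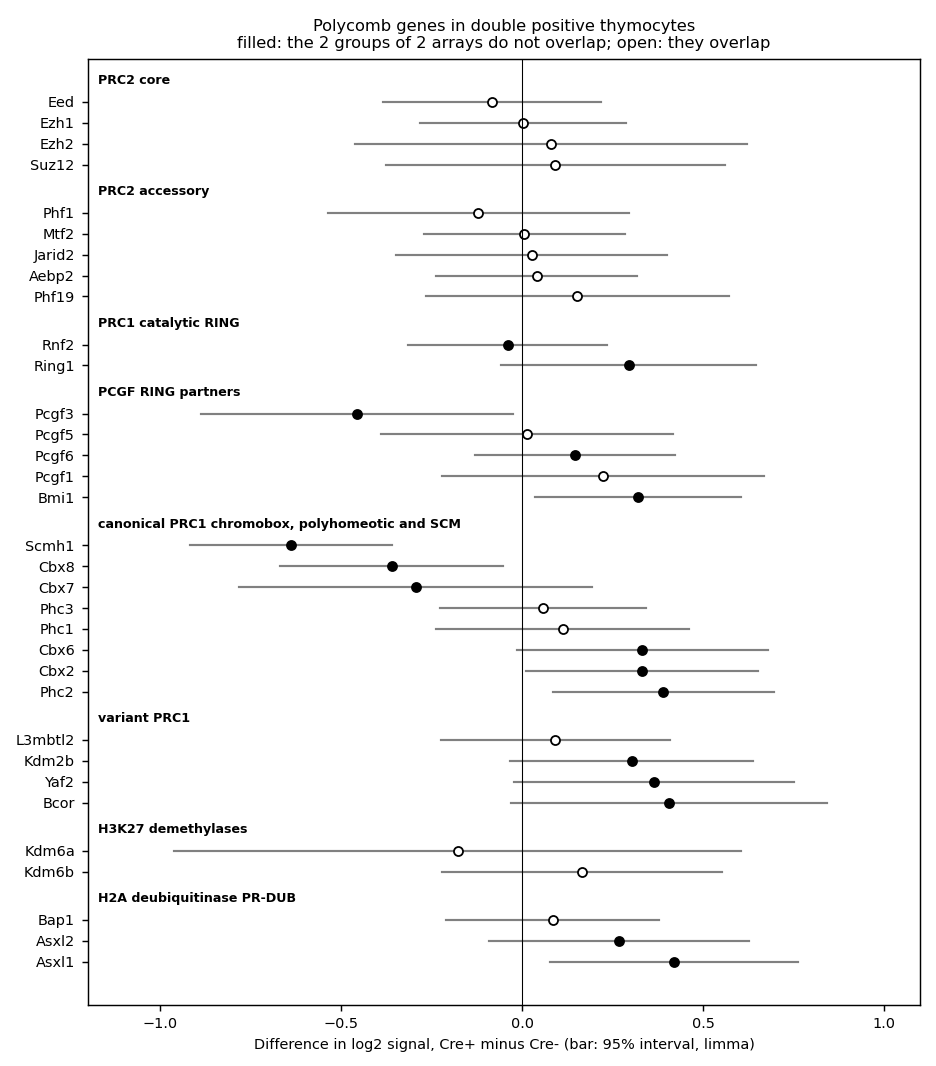
Difference in log2 signal, Cre-positive minus Cre-negative (horizontal axis), for each of the 33 kept genes, grouped by role. Points are differences of 2 against 2 arrays and bars 95% intervals from limma; filled points mark groups that do not overlap. The 9 PRC2 genes are all open points near 0, and Scmh1 lies farthest from 0, at −0.64.

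Among the PRC1 genes the largest differences went both ways. Scmh1, the mammalian homologue of fly Sex comb on midleg, had the smallest p of all members by the probe sets that stood for the genes. It read 7.17 and 7.16 in Cre-positive samples 1 and 2, against 7.76 and 7.84 in Cre-negative samples 1 and 2. The pairs were tight and well apart, and the difference was −0.64 ± 0.11 (SE, 95% interval −0.92 to −0.36), but the limma adjusted p was 0.0658. A second Scmh1 probe set read 5.97 and 5.85 in Cre-positive mice, against 6.30 and 6.36 in Cre-negative mice, a difference of −0.42. The remaining one read 6.57 and 6.53, against 6.59 and 6.62, a difference of −0.06. All 3 were negative with no overlap, yet the sizes were unequal, and the mean of the 3 differed by −0.37 (limma adjusted p = 0.134).

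Bmi1, the PCGF subunit of canonical PRC1 that is known for self-renewal of stem cells, was higher on both Cre-positive arrays by each of its 2 probe sets. The probe set standing for the gene read 9.99 and 10.00 in Cre-positive mice, against 9.62 and 9.72 in Cre-negative mice, a difference of 0.32 ± 0.11 (SE; limma adjusted p = 0.199). The other read 8.24 and 8.26, against 7.65 and 7.65, a difference of 0.60 ± 0.12 (SE; limma adjusted p = 0.0748 over probe sets). The groups did not overlap by either probe set, and no Bmi1 value passed the test.

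The start regions of Bmi1 and Scmh1 are shown as examples. Scmh1 had the smallest p among the probe sets that stood for the members. The groups did not overlap by any probe set of either gene, which also held for Phc2, Bcor, Kdm2b and Asxl1, among others. The sequences are from RefSeq on build GRCm38.p6, 250 bases before to 50 after the annotated start, 5′ to 3′ along the gene, and Scmh1 has 2 annotated starts. Capitals mark the Ikaros core motif GGGAA or its reverse complement TTCCC, with the added base where it extends to TGGGAA (reverse complement TTCCCA).
Bmi1, chr2:18676768-18677067, plus strand: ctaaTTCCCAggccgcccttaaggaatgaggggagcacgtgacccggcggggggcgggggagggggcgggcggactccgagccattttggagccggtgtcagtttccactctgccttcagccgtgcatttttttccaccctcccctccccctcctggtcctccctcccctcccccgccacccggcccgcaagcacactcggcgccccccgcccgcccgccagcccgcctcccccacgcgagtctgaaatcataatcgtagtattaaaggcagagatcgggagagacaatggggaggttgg
Scmh1, first start, chr4:120405098-120405397, plus strand: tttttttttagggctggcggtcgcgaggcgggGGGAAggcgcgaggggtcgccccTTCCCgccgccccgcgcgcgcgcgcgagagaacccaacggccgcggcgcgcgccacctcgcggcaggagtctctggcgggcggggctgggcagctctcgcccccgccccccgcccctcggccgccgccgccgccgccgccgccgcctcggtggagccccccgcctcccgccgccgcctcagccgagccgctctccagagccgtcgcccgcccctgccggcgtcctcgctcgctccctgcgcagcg
Scmh1, second start, chr4:120452994-120453293, plus strand: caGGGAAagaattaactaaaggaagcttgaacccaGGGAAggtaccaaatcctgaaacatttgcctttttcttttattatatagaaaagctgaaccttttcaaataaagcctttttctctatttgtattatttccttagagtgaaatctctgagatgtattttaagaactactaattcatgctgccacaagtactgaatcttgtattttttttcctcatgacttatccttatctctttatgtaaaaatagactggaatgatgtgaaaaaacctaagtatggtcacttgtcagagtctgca
The Bmi1 window held 1 GGGAA core, which was also its only TGGGAA, and each Scmh1 window held 2 cores and 0 of the longer motif. Start windows were found for 30 members, 43 windows in all, and none for Cbx2, Pcgf1, Rybp, Yaf2 and Kdm6b. On either strand GGGAA occurred in 29 of the 43 (67.4%), against 62.7% of 32851 windows of all genes, and TGGGAA, which contains it, in 8 (18.6%), against 25.6%. A match in these letters is a description of the window and not a binding site.

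The other PCGF genes, whose products pair with Ring1 or Rnf2 and define the PRC1 subtype, did not share a direction. Pcgf3, of a variant complex, read 8.22 and 8.12 in Cre-positive mice, against 8.40 and 8.84 in Cre-negative mice, and its other kept probe set 5.91 and 6.01, against 6.43 and 6.29. Both sets were lower without overlap, by −0.46 ± 0.17 and −0.40 ± 0.13 (difference ± SE), with a limma adjusted p of 0.222 for the gene. Without Cre-negative sample 2 the difference of the gene was −0.24. Pcgf5, the close relative of Pcgf3, differed by 0.01 in the probe set standing for the gene, with overlapping arrays. A further Pcgf5 probe set had the largest difference among all 75 kept probe sets of the members. It read 7.69 and 7.81 in Cre-positive mice, against 8.66 and 8.51 in Cre-negative mice, a difference of −0.84 ± 0.13 (SE; limma adjusted p = 0.0581 over probe sets). The remaining Pcgf5 set differed by −0.08 with overlapping arrays, so only 1 of the 3 separated the groups.

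Pcgf6, of the germline-gene repressing variant complex, differed by 0.15 in one probe set and by −0.31 in another, neither passing. Pcgf1, the partner of Bcor and Kdm2b, read 6.21 and 5.75 in Cre-positive mice, against 5.80 and 5.72 in Cre-negative mice, so its difference of 0.22 rested on Cre-positive sample 1. Without that array it was −0.01. Pcgf2, the paralogue of Bmi1, read 4.49 and 4.45, against 4.26 and 4.35, below the filter of 4.76. Of the catalytic subunits, Rnf2 read 10.47 and 10.45 in Cre-positive mice, against 10.51 and 10.49 in Cre-negative mice, a difference of −0.04. Ring1 read 7.40 and 7.11, against 6.95 and 6.97, a difference of 0.295 ± 0.142 (SE; limma adjusted p = 0.316). Leaving out Cre-positive sample 1 gave 0.15, and leaving out Cre-positive sample 2 gave 0.44.

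**Figure D3:**
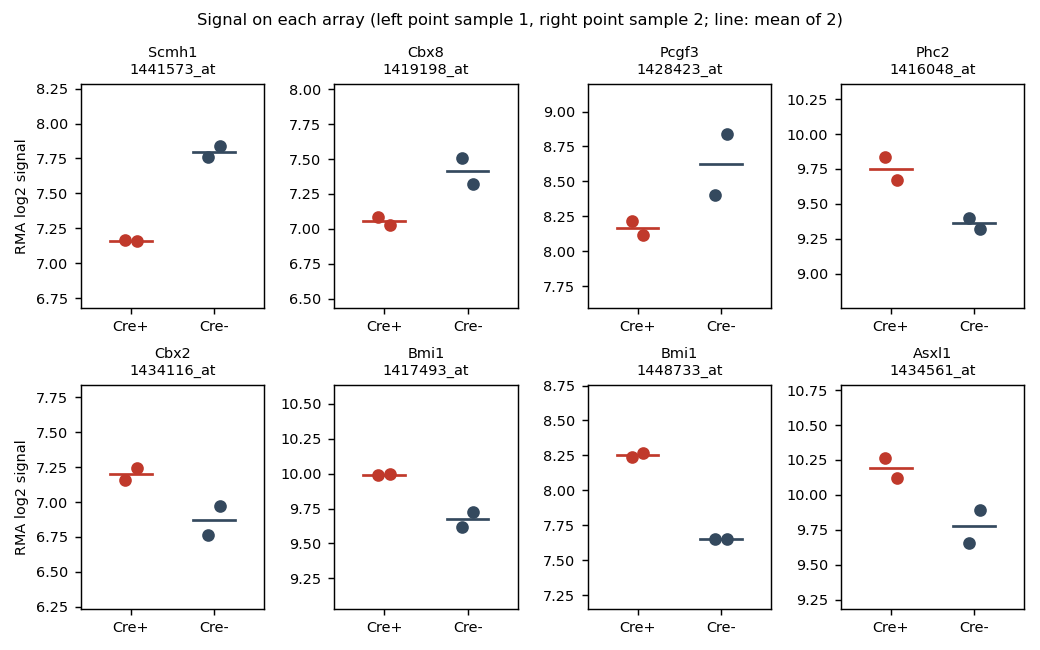
RMA log2 signal (vertical axes, each spanning the same width) on each array for 7 Polycomb genes with an unadjusted p under 0.05, Bmi1 with both probe sets; Cre-positive mice left, Cre-negative mice right, lines the mean of 2. The pairs do not overlap in any panel, and Scmh1 and Bmi1 have the tightest pairs.

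The chromobox proteins, which bind the histone methylated by PRC2 and bring canonical PRC1 to it, differed in sign from one another. Cbx8 read 7.08 and 7.03 in Cre-positive mice, against 7.50 and 7.33 in Cre-negative mice, a difference of −0.36 ± 0.12 (SE; limma adjusted p = 0.19). Cbx7 read 7.14 and 7.18, against 7.72 and 7.18, so its difference of −0.29 rested on Cre-negative sample 1 and was −0.025 without that array, and −0.56 without Cre-negative sample 2. Cbx2 read 7.16 and 7.24, against 6.77 and 6.97, a difference of 0.33 ± 0.13 (SE; limma adjusted p = 0.229). For Cbx2 the Cre-positive arrays lay above the Cre-negative arrays, and for Cbx8 below them.

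Cbx6 read 10.06 and 10.34 in Cre-positive mice, against 9.86 and 9.88 in Cre-negative mice, a difference of 0.33 ± 0.14 (SE), or 0.19 without Cre-positive sample 2. That probe set can bind several transcripts (suffix _s_at), and the other Cbx6 set read 8.93 and 8.85, against 8.94 and 9.17, a difference of −0.16. The caution for suffixes _s_at and _x_at applies also to the sets standing for Bcor, Kdm2b, Suz12 and Jarid2. It applies as well to the other Phc2 set and to the Kdm6b set at 0.52. The polyhomeotic proteins make PRC1 particles cluster through their SAM domains. Phc2 read 9.83 and 9.67 in Cre-positive mice, against 9.40 and 9.32 in Cre-negative mice, a difference of 0.39 ± 0.12 (SE; limma adjusted p = 0.165), with 0.26 in its other probe set. Neither Phc2 set overlapped between groups, while Phc1 (0.11) and Phc3 (0.06) overlapped.

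The genes grouped here as variant PRC1, a form that lacks the chromobox proteins of canonical PRC1, had positive differences, none of which passed the test. The 4 of this group that were measured ran from 0.09 (L3mbtl2) to 0.41 (Bcor). For 3 of them the mice did not overlap, where 34.2% of all genes were higher without overlap. With arrays centred on the kept genes, L3mbtl2 became −0.04. PCGF genes of variant complexes were grouped apart, and there Pcgf3 differed by −0.46 and Pcgf6 by 0.15. Bcor, a corepressor of the complex with Pcgf1, was higher in each of its 3 probe sets. The set standing for it read 8.46 and 8.44 in Cre-positive mice, against 7.82 and 8.27 in Cre-negative mice, and another 8.47 and 8.42, against 7.70 and 7.97, a difference of 0.61 ± 0.14 (SE; limma adjusted p = 0.0998 over probe sets). Bcor is X-linked, and the Cre-negative arrays were uneven, with sample 2 above sample 1 in all 3 sets. Relative to the mean of the other arrays, Cre-negative sample 2 stood at 0.03 in the set standing for Bcor. In the further sets it stood at −0.22 and 0.02. The difference of the gene was 0.18 without Cre-negative sample 1 and 0.63 without Cre-negative sample 2.

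Kdm2b, which recruits that complex to CpG islands, read 10.89 and 10.70 in Cre-positive mice, against 10.41 and 10.58 in Cre-negative mice. Its 2 probe sets differed by 0.30 and 0.32. Yaf2, the paralogue of Rybp, read 8.79 and 8.56, against 8.46 and 8.17, a difference of 0.36 ± 0.16 (SE; limma adjusted p = 0.269), or 0.22 without Cre-negative sample 2. In both genes the nearest Cre-positive and Cre-negative arrays lay close together. L3mbtl2, an MBT-domain subunit of the complex with Pcgf6, had overlapping arrays.

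The subunits of the H2A deubiquitinase were also positive, by 0.085 (Bap1), 0.27 (Asxl2) and 0.42 (Asxl1). Asxl1, an activating partner of Bap1 often mutated in human myeloid disease, read 10.27 and 10.12 in Cre-positive mice, against 9.65 and 9.89 in Cre-negative mice, a difference of 0.42 ± 0.14 (SE; limma adjusted p = 0.177). A second Asxl1 set differed by 0.17. Asxl2 read 9.04 and 9.27, against 8.999 and 8.78, but its 2 other kept sets differed by −0.004 and −0.018, and the difference of the gene was 0.15 without Cre-positive sample 2 and 0.16 without Cre-negative sample 2. With arrays centred on the kept genes Bap1, the catalytic subunit, became −0.04.

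The demethylase Kdm6a is X-linked, and in 3 of its 4 probe sets the array with the female pattern was the highest. Cre-negative sample 2 had a signal of 12.75 for Xist, the RNA that coats the silenced X, where the remaining arrays had 4.73 to 5.37. Uty, the Y-linked relative of Kdm6a, was at 3.27 on that array and at 7.39 to 7.70 on the rest. Kdm6a is known to escape X inactivation in mice. The probe set standing for Kdm6a read 9.67 and 9.58 in Cre-positive mice, against 9.31 and 10.29 in Cre-negative samples 1 and 2, a difference of −0.18 ± 0.31 (SE; limma adjusted p = 0.798). The array with Xist signal stood 0.77 above the mean of the other 3, and without it the difference was 0.31 (limma adjusted p = 0.293).

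A second Kdm6a set had the same order, at 8.60 and 8.60 in Cre-positive mice, against 8.54 and 9.19 in Cre-negative mice. One more did not follow it. That set read 5.91 and 5.61 in Cre-positive mice, against 6.56 and 6.54 in Cre-negative samples 1 and 2, a difference of −0.79 ± 0.15 (SE; limma adjusted p = 0.0695 over probe sets), and −0.80 against Cre-negative sample 1 alone. There both Cre-negative arrays were alike, with and without Xist signal. The remaining set read 5.51 and 5.61 in Cre-positive mice, against 5.68 and 5.83 in Cre-negative samples 1 and 2, without overlap. In it the array with Xist signal was again the highest, 0.23 above the mean of the other 3.

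**Figure D4:**
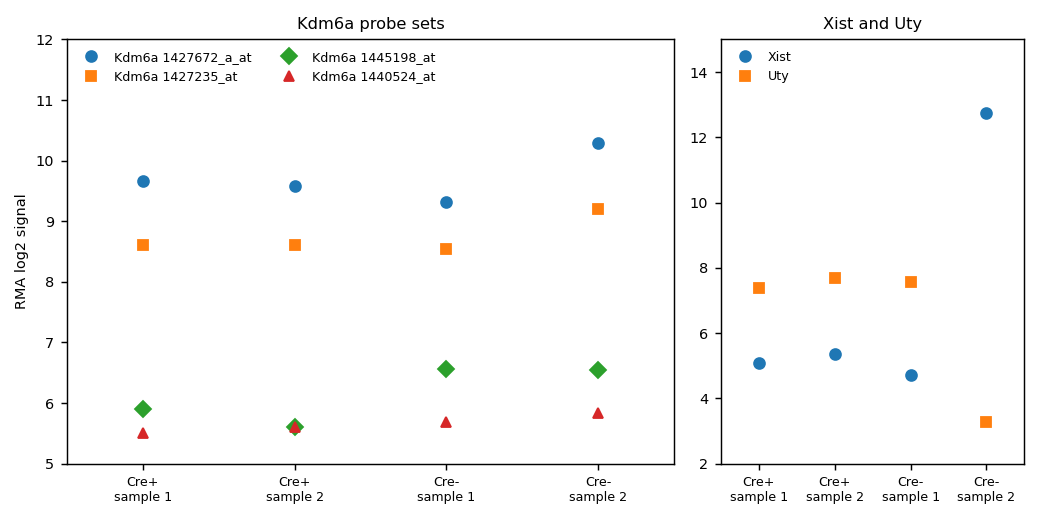
RMA log2 signal (vertical axes) on each array for the 4 Kdm6a probe sets (left) and for Xist and Uty (right). In the upper 2 Kdm6a sets Cre-negative sample 2, the array with Xist at 12.75, is highest (10.29 and 9.19), whereas in the set at 5.91 and 5.61 on the Cre-positive arrays both Cre-negative arrays are higher.

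Kdm6b, the demethylase that responds to signalling, had probe sets of opposite sign. The set standing for it read 11.67 and 11.56 in Cre-positive mice, against 11.62 and 11.27 in Cre-negative mice, a difference of 0.17. One other set differed by 0.52 ± 0.12 (SE; limma adjusted p = 0.0999 over probe sets), at 9.59 and 9.46 against 9.02 and 8.99, and the remaining one by −0.59 ± 0.29 (SE), at 7.39 and 7.22 against 8.33 and 7.46. The groups did not overlap in either of these, but the directions were opposite.

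Such disagreement was common. Of 92 member probe sets 75 passed the filter, and 0 of them passed in limma over 20967 probe sets, where 0.868% of all probe sets passed. At an unadjusted p under 0.05 there were 6 higher and 8 lower, 18.7% of them, against 21.2% of all probe sets (12.1% higher and 9.06% lower). There was no overlap for 39 (52.0%), 21 higher and 18 lower, against 53.2% of all probe sets (31.5% higher and 21.8% lower). Their median difference was 0.01, beside 0.04 over all probe sets. Of 24 member genes with more than 1 kept probe set, 12 (50.0%) had sets of both signs, against 43.7% of 5348 genes. In 8 genes all sets were positive and in 4 all were negative. Probe sets of 1 gene share the same arrays and are not replicates, and where their probes lie in the transcripts is not given in the sources used here.

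**Figure D5:**
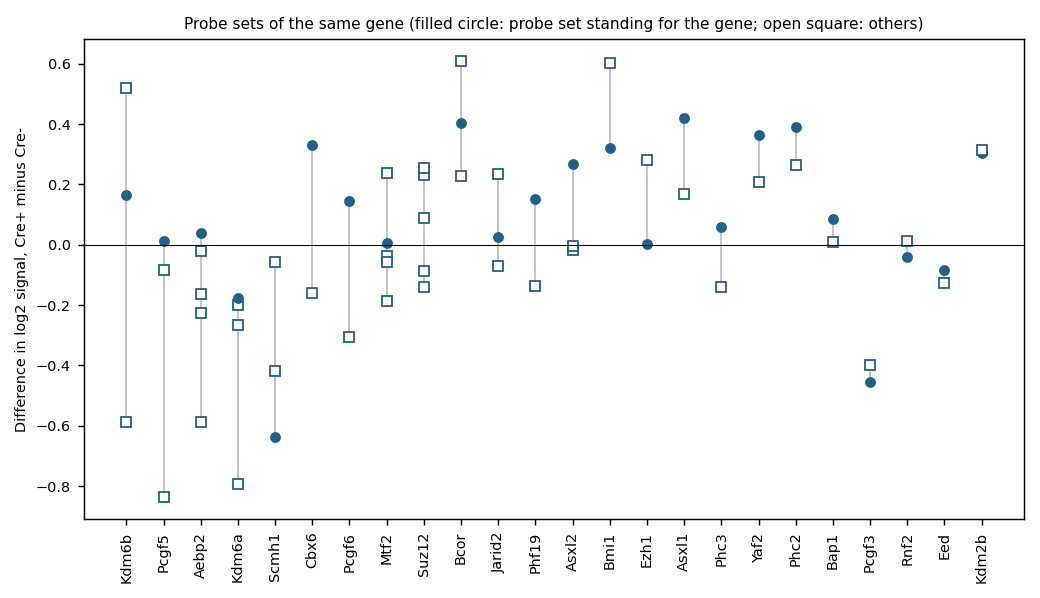
Difference in log2 signal, Cre-positive minus Cre-negative (vertical axis), for every kept probe set of the 24 genes with more than 1, ordered by spread. Kdm6b spans −0.59 to 0.52 and Pcgf5 −0.84 to 0.01, whereas the 2 sets of Kdm2b lie at 0.30 and 0.32.

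Among 38 further genes tied to Polycomb function 31 passed the filter, of which 1 rose, 0 fell and 30 did not pass, with a median difference of 0.07. Sfmbt2, an MBT-domain protein of the Polycomb group, rose by 0.98 ± 0.13 (SE, limma adjusted p = 0.0411). In the fit over probe sets the same set did not pass (limma adjusted p = 0.0508). The other Sfmbt2 probe set differed by 0.68 (limma adjusted p = 0.172 over probe sets). Its Cre-negative mean of 4.70 lay below the filter of 4.76, so it was kept through its Cre-positive signal and adds no support. The set standing for the gene read 8.54 and 8.41 in Cre-positive mice, against 7.41 and 7.59 in Cre-negative mice. Leaving out 1 array ended that call each time, with differences between 0.89 and 1.07, as did centring on the kept genes (0.85, limma adjusted p = 0.0573).

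Its paralogue Sfmbt1 differed by 0.57 ± 0.16 and E2f6, the DNA-binding subunit of a variant PRC1, by 0.49 ± 0.15 (SE), neither passing. Ogt, the X-linked enzyme that adds N-acetylglucosamine to nuclear proteins and binds the deubiquitinase, read 11.49 and 11.30 in Cre-positive mice, against 12.12 and 11.91 in Cre-negative mice. All 5 Ogt probe sets were lower without overlap, by −0.66 to −0.51, and the limma adjusted p of the gene was 0.0962. Nsd3, a histone H3 methyltransferase, differed by −0.38 ± 0.12 (SE; limma adjusted p = 0.158).

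Most genes of a list that Polycomb classically silences lay under the filter on low signal. Of 36 such genes, among them Hox genes, lineage regulators and the cell cycle inhibitor Cdkn2a, 35 had a probe set and 10 passed the filter. In limma 0 of the 10 passed (0 at an unadjusted p below 0.05), with differences between −0.20 (Hoxa7) and 0.22 (Hoxa5) and a median of −0.03. Their mean signal was 5.36 and 5.50 in Cre-positive mice, against 5.35 and 5.57 in Cre-negative mice. Cdkn2a, a target that rises in many cells on loss of Polycomb, read 3.65 and 3.53, against 3.49 and 3.30, below the filter on all 4 arrays. Zbtb16, the NKT cell regulator, read 5.25 and 5.12, against 5.22 and 5.40.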

How the data were processed

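Expression was measured on 4 arrays of 1 mouse each, 2 per group. The deposited table gives log2 signals per probe set, made by the authors with RMA (version not stated), per the submitters' processing notes; the base of the logarithm is not stated and was taken as 2. RNA was labelled with biotin in a 2-cycle assay from several listed starting amounts that are not tied to samples, per the labels' protocols. The number of arrays limits the precision.

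Probe sets were named by the platform annotation, updated by Entrez identifier (34741 of 34945 with 1 symbol matched, 0 symbols changed). The probe set with the highest mean stood for each of 18193 genes, and 11639 genes with a mean at or above the 40th percentile (4.76) were kept. limma 3.58.1 in R 4.3.3 (lmFit, eBayes) compared Cre-positive with Cre-negative arrays, two-sided, with Benjamini-Hochberg adjustment and a threshold of 0.05; a second fit used 20967 probe sets. There were 2 residual and 3.59 prior degrees of freedom. An exact permutation test of 2 against 2 cannot go below 0.333. The procedure was run on simulated data with added changes larger than any difference of the members. That run does not show whether changes of the members' size would be found. Figures used matplotlib 3.10.9.

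The members, lists and tests were chosen with earlier results of these data known. Members were named where the unadjusted p was under 0.05, probe sets disagreed or the gene was X-linked, and otherwise with ranges; from the other lists, called genes and up to 4 with the smallest p. Alternatives varied the filter, probe set choice, scaling, variance prior, array weights and a block for sample number, and dropped each array in turn. Some listed genes were not analysed here.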

Additional observations from a re-analysis of the deposited data

How the results depend on the processing

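No Polycomb gene passed under any alternative except Scmh1, called (1 member) with the sample number as a replicate block (−0.64, limma adjusted p = 0.0365; 628 genes higher and 193 lower, 7.05% of all). The labels number the samples without saying that a number marks a shared litter or day, and same-numbered arrays of the 2 groups correlated at 0.18 in their deviations from the group means, so the numbers were not used as pairs. Calls over all genes were 129 higher and 31 lower. There were 68 higher with a stricter filter (60th percentile), 222 higher and 79 lower with a trended, robust prior, and 75 higher and 48 lower with arrays centred on the kept genes, an alternative chosen after seeing the data. With 1 array left out there were 3 to 95 higher and 0 to 4 lower. Over probe sets there were 182 calls, and 4 to 48 with 1 array left out, of which 2 to 22 were among the 182. The cause was not tested.

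The median of the members, 0.09, became 0.047 when all probe sets of a gene were averaged, 0.080 without _s_at and _x_at sets, 0.061 with arrays centred on their median, −0.037 centred on the kept genes, and 0.038 to 0.156 with 1 array left out. Role group medians moved further. After averaging probe sets the PCGF partners were at −0.133 and the deubiquitinase at 0.047, and the stricter filter left the PCGF partners at 0.080. Canonical PRC1 was at −0.052 without _s_at and _x_at sets, and the deubiquitinase at 0.24 with arrays centred on their median. Centred on the kept genes, the medians were −0.10 (PRC2 accessory), −0.001 (catalytic RING), 0.017 (PCGF), −0.044 (canonical PRC1), 0.20 (variant PRC1) and 0.14 (deubiquitinase). With 1 array left out variant PRC1 ranged from 0.21 to 0.41 and the deubiquitinase from 0.15 to 0.35.

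Several small differences changed sign. After averaging probe sets these were Mtf2 (−0.013), Aebp2 (−0.19), Phc3 (−0.041), Pcgf5 (−0.30) and Pcgf6 (−0.13). Without _s_at and _x_at sets they were Suz12 (−0.14), Jarid2 (−0.069) and Cbx6 (−0.16), and with arrays centred on their median Ezh1 (−0.028), Jarid2 (−0.003), Mtf2 (−0.024) and Pcgf5 (−0.017). Centred on the kept genes they were Ezh1 (−0.13), Ezh2 (−0.049), Suz12 (−0.037), Jarid2 (−0.10), Mtf2 (−0.12), Aebp2 (−0.089), Phc1 (−0.017), Phc3 (−0.071), Pcgf5 (−0.115), Bap1 (−0.044) and L3mbtl2 (−0.037). With 1 array left out the sign changed within these ranges: Ezh1 −0.051 to 0.057, Ezh2 −0.22 to 0.38, Suz12 −0.10 to 0.29, Jarid2 −0.14 to 0.20, Mtf2 −0.014 to 0.027, Phf1 −0.325 to 0.084, Phf19 −0.059 to 0.365, Phc1 −0.032 to 0.26, Pcgf1 −0.008 to 0.46, Pcgf5 −0.16 to 0.18, Kdm6a −0.67 to 0.31, Kdm6b −0.007 to 0.34 and L3mbtl2 −0.012 to 0.195. With 1 array left out Ikzf1 lay between −1.69 and −1.37 and its call was lost each time (limma adjusted p = 0.0717 to 0.164), and with all probe sets averaged it was −0.88 (limma adjusted p = 0.037).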

Other observations

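Rybp, the subunit of variant PRC1 that is left out of the comparison, is covered only by probe sets annotated also to its pseudogene Rybp-ps. One of them read 9.90 and 9.95 in Cre-positive samples 1 and 2, against 9.94 and 9.81 in Cre-negative samples 1 and 2, and the other 6.28 and 6.27, against 6.24 and 6.24. A further probe set shared by Kdm6b and 1700064E03Rik read 10.89 and 10.65 in Cre-positive mice, against 10.78 and 10.53 in Cre-negative mice.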
